A study of Mus musculus with 18 samples.

Results

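The 70 genes described here were picked by symbol to cover nuclear genes of respiratory complexes I, II, III and V, out of 14217 genes with a probe set of their own symbol. A gene was a member if its single annotated symbol began with Nduf, Uqcr or Atp5, or was Sdha, Sdhb, Sdhc, Sdhd or Cyc1, and the probe set with the highest mean level over the 18 arrays stood for it. They comprised 34 subunits of complex I, 6 complex I assembly factors, 4 subunits of complex II, 8 of complex III, 15 of complex V, the complex V inhibitor Atp5if1, and the pair Ndufa4 and Ndufa4l2. Subunits encoded by mitochondrial DNA carry other symbols and were not members.

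Heart RNA of wild-type animals and of homozygous carriers of a naturally occurring titin-splicing mutation was measured on Affymetrix arrays. Titin is the large elastic protein of the sarcomere. The 6 groups were each genotype at postnatal days 1, 20 and 49, and each group had 3 animals. The mutation arose in Sprague-Dawley rats, which were crossed with Fisher 344 rats, and the labels do not say which animals shared a litter. They name no treatment. Per the design text each RNA sample came from the ventricles of 1 animal, while the sample titles name the whole heart.

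Complexes I and II pass electrons from NADH and succinate to ubiquinone, complex III passes them on to cytochrome c, and complex V uses the proton gradient built by complexes I, III and IV to make ATP. Complex I has a core that holds the flavin and iron-sulfur clusters and a shell of accessory subunits, and complex V has a catalytic head, a membrane rotor and a peripheral stalk that joins them. In the rat heart the first weeks after birth are the time when the muscle turns to fatty acid oxidation and its mitochondria multiply.

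Levels are log2 values, on which a difference of 1 is a 2-fold change. A gene was called when its limma p-value, adjusted by the Benjamini-Hochberg method over 31042 probe sets, was below 0.05. Rbm20, a muscle splicing regulator known to be disrupted in this line, stood at 5.35 to 6.12 on the mutant arrays and 9.74 to 10.90 on the wild-type arrays, so no array went against its label. Cardiomyocyte markers were bright on all arrays. Xist was above 10 on 1 of 3 arrays in each group at days 1 and 20 and on 2 of 3 at day 49. It was thus even between the genotypes but not between days 20 and 49, and its part in changes over that step was not tested. The gap between 3' and 5' probe sets of Gapdh, a sign of uneven RNA, reached 1.37 at day 1 and 0.90 at day 20, and hybridization controls were low on 2 mutant arrays at day 49. The members were among the brighter probe sets: their mean levels lay between 6.24 and 13.64, and 0 of the 70 fell below 5.47, the median of all probe sets. For the 9 members with several probe sets the rule took the brightest, so high levels were favoured by the choice.

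Between day 1 and day 20 most of these genes rose in the wild type. In all, 44 of 70 were called higher, against a background of 12.6% of all probe sets, and 1 was called lower, against 15.6%. The median change was 0.32, a 1.25-fold rise, beside 0.04 over all probe sets, and 64 of 70 were higher at day 20. In the mutant 47 were called higher (background 12.4%) and 1 lower (background 15.9%), with a median of 0.33. Of the 70 genes, 41 were called higher in both genotypes and 50 in at least 1 of them. The mean level of the 70 genes stood at 11.50, 11.49 and 11.57 on the wild-type arrays of day 1 and at 11.85, 11.82 and 11.85 on those of day 20. In the mutant it went from 11.48, 11.51 and 11.47 to 11.75, 11.85 and 11.87, and in neither genotype did the ages overlap. As a comparison, the 205 probe sets as bright as the middle of the members (levels 11.62 to 12.67) had a median change of -0.02 in the wild type. Calls were more common among these 205 than among all probe sets. In the wild type 36.1% of them were called higher and 31.2% lower, and in the mutant 36.6% and 23.4%. Members within that range of levels were among them, so this was not a separate set.

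**Figure D1:**
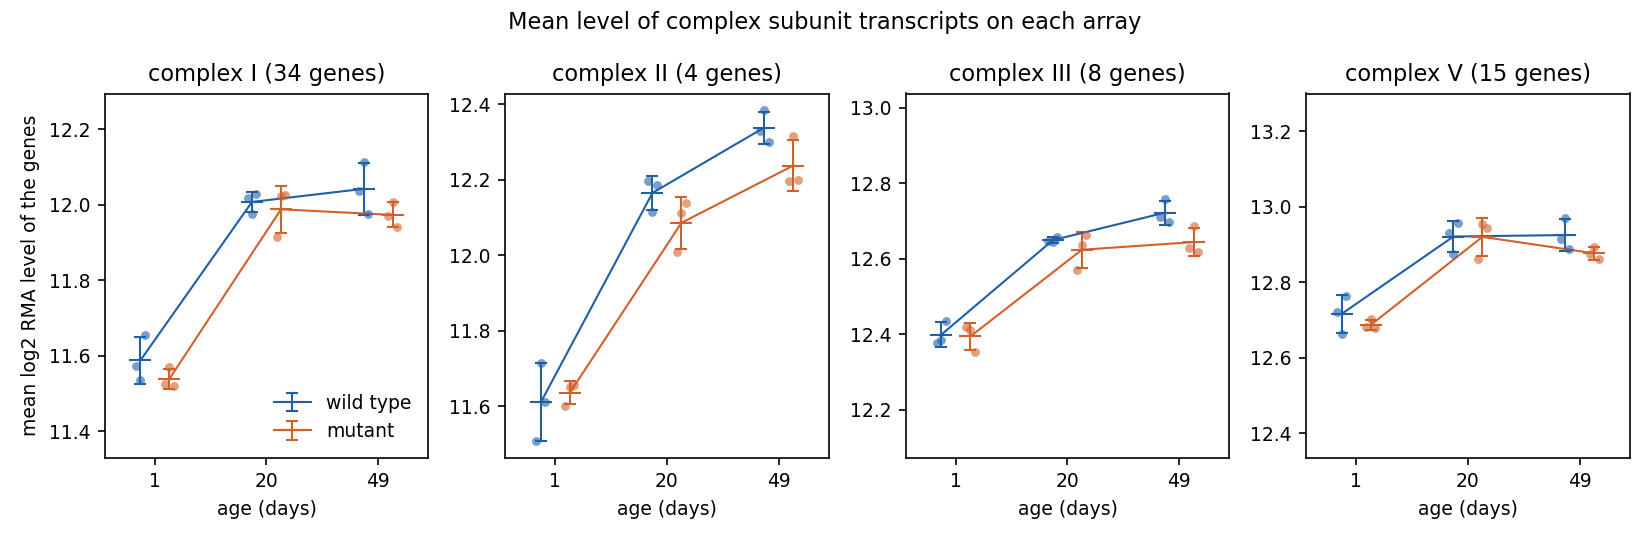
Mean log2 RMA level of the subunits of complexes I, II, III and V (vertical axes, all spanning the same range) against age in days, with 1 point per array and the mean ± SD of 3 arrays per group. In all 4 panels and both genotypes the day 20 arrays lie above the day 1 arrays. For complexes II and III the means of both genotypes are higher again at day 49.

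All 6 measured core subunits of complex I rose in both genotypes, with changes of 0.36 to 0.92 in the wild type. The largest change was that of Ndufv2, which carries an iron-sulfur cluster next to the NADH-binding subunit. In the wild type it read 11.60, 11.77 and 11.98 at day 1 and 12.73, 12.64 and 12.74 at day 20. In the mutant they went from 11.82, 11.85 and 11.96 to 12.69, 12.70 and 12.75. The ages were well apart in both genotypes, with a rise of 0.92 ± 0.09 (SE; 1.90-fold; adjusted p = 4.76e-07) in the wild type and 0.84 in the mutant. Ndufs3 and Ndufs8, core subunits of the arm that leads electrons to ubiquinone, rose by 0.76 ± 0.10 and 0.75 ± 0.10 in the wild type, beside mutant rises of 0.88 and 0.79. Ndufs7, which bears the last iron-sulfur cluster before ubiquinone, rose by 0.60 in the mutant. The core subunit with the smallest rise, Ndufv1, which binds NADH and the flavin, still went from 11.79, 11.59 and 11.79 to 12.08, 12.10 and 12.07 in the wild type, without overlap.

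The 28 accessory subunits of complex I were all higher at day 20 in both genotypes, with 20 called in the wild type and 21 in the mutant. Their median change was 0.36 in the wild type, beside 0.67 for the core subunits. This difference between the roles was not tested. Ndufb10, an accessory subunit of the membrane arm, stood at 10.64, 10.62 and 10.83 in the wild type at day 1 and at 11.55, 11.33 and 11.56 at day 20. Its rise was 0.78 ± 0.10 (adjusted p = 1.10e-05), and 0.97 ± 0.10 in the mutant, the largest of any member there. Ndufv3, a small accessory subunit of the NADH-binding module that is taken up again below, rose by 0.76 ± 0.08 in the wild type and 0.85 in the mutant. Ndufa8 and Ndufa5, accessory subunits of the membrane and matrix arms, rose by 0.68 and 0.61 in the wild type. At the other end, Ndufs6, a zinc-binding accessory subunit, read 12.62, 12.49 and 12.59 at day 1 and 12.53, 12.55 and 12.63 at day 20 in the wild type, a difference of less than 0.01 with overlapping ages.

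Assembly factors of complex I did not follow the subunits as a group: 1 of 6 was called higher in each genotype, and 3 of 6 were lower at day 20. They were dimmer than the complex I subunits, with a mean level of 7.85 beside 11.59 in the wild type at day 1. Their median SE was also larger, at 0.12 beside 0.09. The part of level in this contrast was not tested. The called gene was Ndufaf3, which acts early in the building of the matrix arm. It read 8.89, 9.27 and 9.02 at day 1 and 9.79, 9.74 and 9.75 at day 20 in the wild type, a rise of 0.70 ± 0.11 (adjusted p = 6.75e-05), and it rose by 0.73 in the mutant. Ndufaf4, the partner of Ndufaf3, had a change of -0.19 in the wild type that was not called. Ndufa4, first taken for a complex I subunit and now assigned to cytochrome oxidase, rose by 0.32 ± 0.08 in the wild type (adjusted p = 0.00344) and 0.34 in the mutant. Its low-level relative Ndufa4l2, known as a gene induced by hypoxia, changed by 0.33 ± 0.14 in the wild type, which was not called (adjusted p = 0.0981), and rose by 0.52 in the mutant.

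All 4 subunits of complex II rose in both genotypes. Sdha, the flavoprotein that oxidizes succinate, had levels of 11.53, 11.66 and 11.41 at day 1 and 12.20, 12.09 and 12.18 at day 20 in the wild type. In the mutant it went from 11.66, 11.72 and 11.57 to 11.92, 12.02 and 12.10. The rise was 0.62 ± 0.09 in the wild type (adjusted p = 2.97e-05) and 0.36 ± 0.09 in the mutant (adjusted p = 0.00422). The test of that difference, -0.26 ± 0.12, did not pass (adjusted p = 1.00; unadjusted p = 0.0545). The iron-sulfur subunit Sdhb rose by 0.60 in the wild type and 0.59 in the mutant. The membrane anchors Sdhc and Sdhd rose by 0.42 and 0.58 in the wild type, beside 0.39 and 0.45 in the mutant. A second, nearly as bright probe set of Sdhd gave larger rises, 0.83 and 0.95.

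In complex III 4 of 8 subunits rose in each genotype, with a median change of 0.20 in the wild type. Both redox subunits were among them: the Rieske iron-sulfur protein Uqcrfs1 rose by 0.43 ± 0.08 and cytochrome c1, encoded by Cyc1, by 0.29 ± 0.08 (adjusted p = 0.00814). Cyc1 stood at 12.45, 12.46 and 12.60 at day 1 and at 12.80, 12.76 and 12.81 at day 20 in the wild type. In the mutant Uqcrfs1 rose by 0.36 and Cyc1 by 0.25. The core protein Uqcrc2 rose by 0.52 ± 0.08, from arrays at 11.83 to 12.03 to arrays at 12.46 to 12.48, and its second, dimmer probe set by 1.55 ± 0.36. The other core protein, Uqcrc1, changed by 0.19 ± 0.09, which was not called (adjusted p = 0.108). Among the 4 small subunits only Uqcr11 was called, in both genotypes, and Uqcrh, the hinge protein, had a wild-type change of 0.06.

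In complex V the peripheral stalk moved most evenly. All 4 stalk subunits rose in both genotypes, with changes of 0.27 to 0.47 in the wild type. Atp5pb, the stalk's b subunit, read 12.48, 12.66 and 12.68 at day 1 and 13.15, 12.99 and 13.11 at day 20, a rise of 0.47 ± 0.09 (adjusted p = 0.000321). In the catalytic head 2 of 5 subunits rose in the wild type and 3 of 5 in the mutant. Atp5f1b, the catalytic beta subunit, was the brightest member and stood at 13.69, 13.52 and 13.64 at day 1 and at 13.70, 13.67 and 13.74 at day 20, with overlapping ages. Of the 6 membrane subunits 2 rose in each genotype. The rotor's c subunit was measured through Atp5mc3, which read 13.20, 13.20 and 13.24 at day 1 and 13.33, 13.26 and 13.34 at day 20. These arrays did not overlap, but the difference of 0.10 ± 0.07 was not called (adjusted p = 0.332). The 35 brighter members had a median wild-type change of 0.28 and the 35 dimmer ones 0.37, with 21 and 23 called higher.

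The 1 member called lower was Atp5if1, whose product inhibits ATP hydrolysis by complex V. It stood at 10.11, 9.94 and 10.26 in the wild type at day 1 and at 9.69, 9.61 and 9.55 at day 20. In the mutant it went from 10.09, 10.22 and 10.33 to 9.59, 9.79 and 9.73. Ages did not overlap in either genotype, and it fell by 0.49 ± 0.12 in wild-type animals (adjusted p = 0.00503) and by 0.51 ± 0.12 in mutants (adjusted p = 0.00354). Its 2 other probe sets were dim, at mean levels of 4.82 and 3.83, and had wild-type changes of -0.02 and 0.20, neither called.

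**Figure D2:**
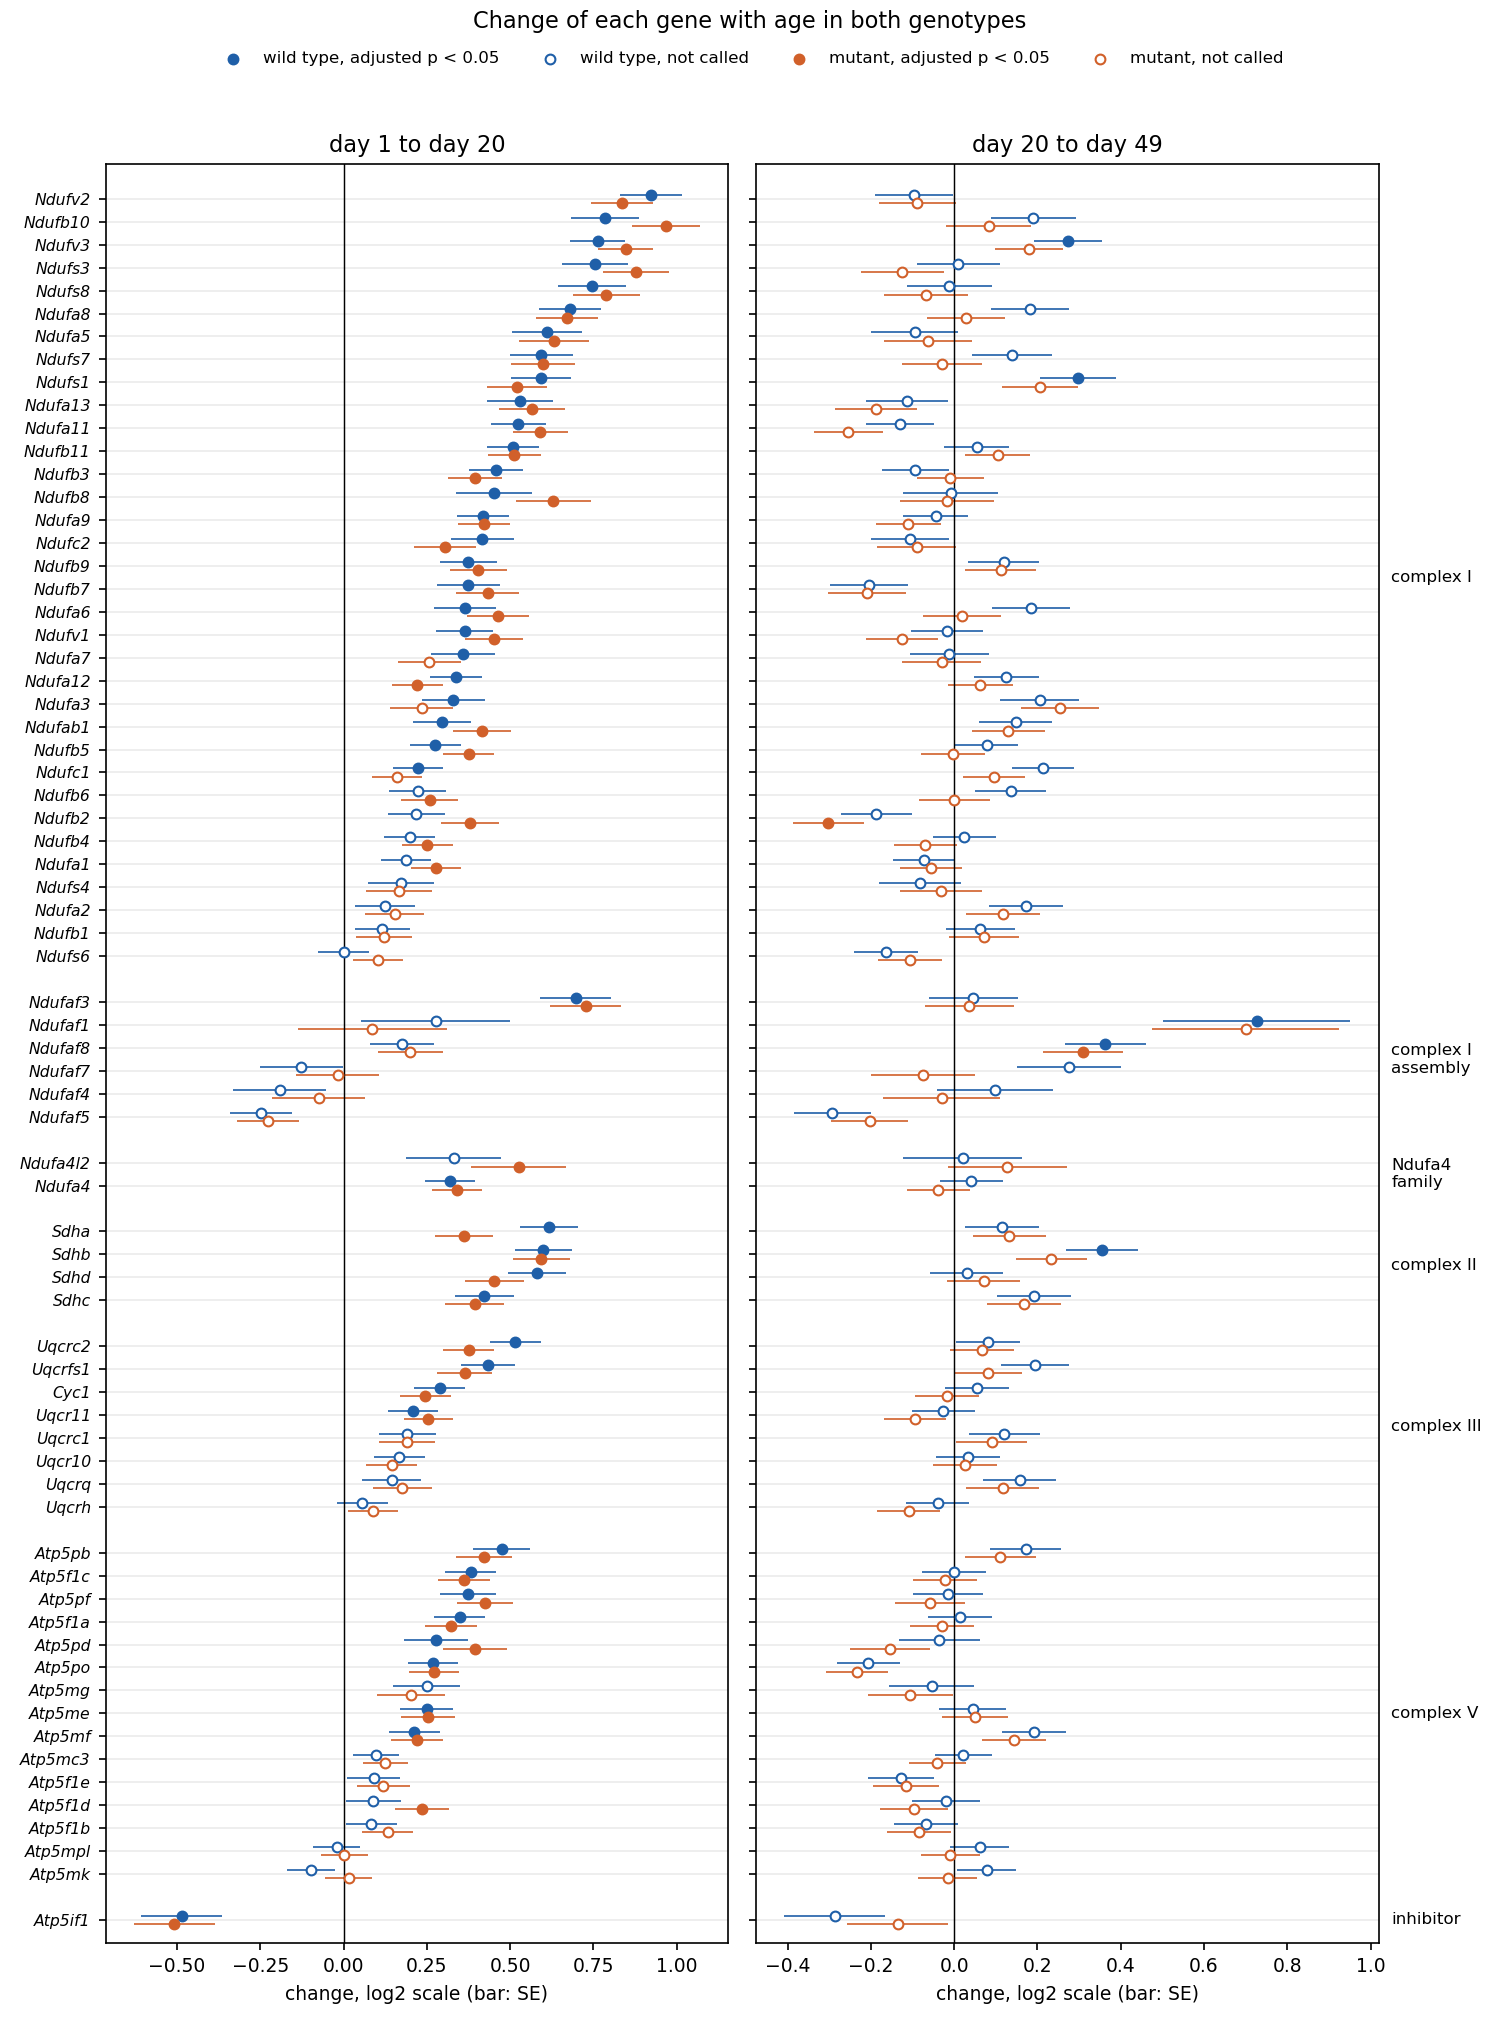
Change of each of the 70 genes from day 1 to day 20 (left) and from day 20 to day 49 (right) on the log2 scale, by complex, with wild type in blue, mutant in orange, bars of ± 1 SE, and filled points for an adjusted p below 0.05. On the left nearly all points lie right of 0 in both genotypes and Atp5if1 lies left of it. On the right 5 wild-type and 2 mutant points are filled.

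Other features of the tissue moved over the same step. Cardiomyocyte markers rose for 7 of 11 genes in the wild type with 0 falling, and their mean level on an array was 13.09 to 13.18 at day 1 and 13.37 to 13.45 at day 20. All 10 cell cycle genes fell, with a median of -3.68. Fibroblast markers rose for 4 and fell for 3 of 9, smooth muscle and pericyte markers rose for 2 and fell for 4 of 7, leukocyte markers rose for 3 of 7, and 0 of 5 erythroid markers were called. The Gapdh gap was wider on day 1 arrays, and without the 3 arrays where it exceeded 1 (1 wild-type and 2 mutant), the count of rising members was 37 in the wild type and 38 in the mutant. The mutant count then rests on 1 animal at day 1, assumed to vary like the other groups. In these ventricular extracts a change in RNA per cell and a change in the share of cardiomyocytes cannot be told apart, and the part of the marker changes in the result was not tested.

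From day 20 to day 49 few genes changed. In the wild type 5 were called higher (7.14% of the members, background 3.53%) and 0 lower (background 6.05%), with a median of 0.04. At an unadjusted limma p below 0.05, 6 members were lower there, as were 4037 of all 31042 probe sets. In the mutant 1 was called higher (background 3.92%) and 1 lower (background 6.23%), with a median of -0.02. The difference between the genotypes in this step was called for 0 members by limma (0 at an unadjusted p below 0.05). Of all 31042 probe sets, 6 were called for this difference and 926 had an unadjusted p below 0.05, so few calls were found anywhere. Sdhb rose further in the wild type, from 12.45, 12.38 and 12.54 at day 20 to 12.79, 12.84 and 12.80 at day 49, by 0.36 ± 0.09 (adjusted p = 0.0128). Without the second wild-type array of day 20 its change was 0.32 and not called (adjusted p = 0.067). In the mutant Sdhb went from 12.25, 12.42 and 12.49 to 12.55, 12.63 and 12.68, a difference of 0.23 with an adjusted p of 0.0913.

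The other genes called over this step were complex I subunits and assembly factors, 2 of each in the wild type. Ndufs1, the largest core subunit, rose by 0.30 ± 0.09 in the wild type (adjusted p = 0.0453) and Ndufv3 by 0.27 ± 0.08 (adjusted p = 0.0422). Both calls ended when any 1 of the 6 wild-type arrays of these ages was left out. Ndufaf1, which helps to build the membrane arm, read 6.02, 6.44 and 6.06 at day 20 and 7.21, 6.48 and 7.01 at day 49 in the wild type. The mean rise was 0.73 ± 0.22 (adjusted p = 0.049), and the lowest array of day 49 stood just above the highest of day 20. This call ended without any 1 of these arrays other than array 2 of day 49 (adjusted p up to 0.224). Ndufaf8, the partner of the assembly factor Ndufaf5, rose by 0.36 ± 0.10 in wild-type animals (adjusted p = 0.0218) and by 0.31 ± 0.10 in mutants (adjusted p = 0.0482). Its mutant call ended without any 1 of the 6 mutant arrays of these ages (adjusted p = 0.0679 to 0.160), and its wild-type call without array 2 or 3 of day 20 or array 1 or 2 of day 49. Ndufb2, an accessory subunit of the membrane arm, stood at 11.91, 12.09 and 12.01 in the mutant at day 20 and at 11.72, 11.77 and 11.62 at day 49. It fell by 0.30 ± 0.09 there (adjusted p = 0.0309), and its wild-type arrays went from 11.88, 11.89 and 11.94 to 11.66, 11.83 and 11.67. The mutant call ended without array 2 or 3 of day 20 or array 1 or 3 of day 49 (adjusted p up to 0.120). With single arrays left out in turn, the count of rising members in the wild type was 1 to 2.

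**Figure D3:**
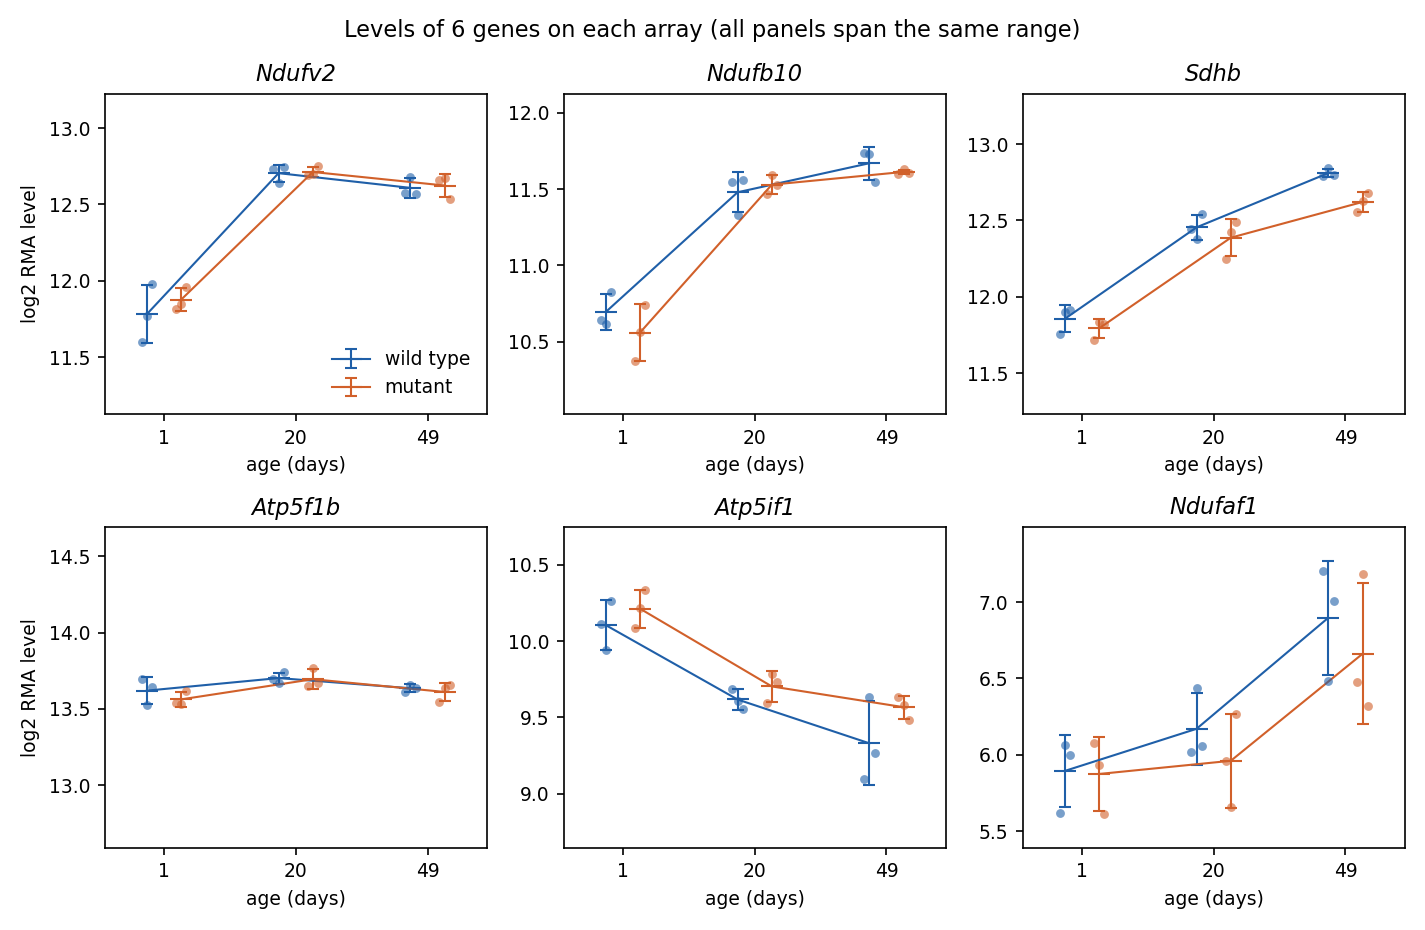
Log2 RMA levels of 6 genes against age in days, with 1 point per array and the mean ± SD of 3 arrays per group, on axes that span the same range. Ndufv2 and Ndufb10 rise to day 20, Sdhb rises over both steps in the wild type, Atp5f1b is level, Atp5if1 falls to day 20, and Ndufaf1 is higher at day 49.

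Between the genotypes, differences in these genes were small at every age. At day 1, 0 of 70 were called higher and 0 lower (background 0.0548% in each direction). At day 20 the counts were 0 and 0 (backgrounds 0.0773% higher and 0.0612% lower), and at day 49 again 0 and 0 (backgrounds 0.235% and 0.37%). At an unadjusted p below 0.05 there were 1, 1 and 6 genes at these ages by limma, all of them lower in the mutant. Of all 31042 probe sets, 960, 735 and 1328 were lower in the mutant at that threshold, and 1120, 591 and 1206 were higher. Over the mean of the ages 0 were called higher (background 0.657%) and 1 lower (background 0.738%), which was Ndufv3. The 95% interval of a genotype difference at 1 age reached 0.18 to either side for the median gene. It lay wholly within 0.5 of 0 for 70 genes at day 1 and for 69 at days 20 and 49. An interaction of genotype and age was called for 0 of the 70 by limma's F test of both interaction terms (background 0.0741%; lowest adjusted p = 1.00; 0 genes at an unadjusted p below 0.05). In this F test 4.36% of all probe sets had an unadjusted p below 0.05.

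**Figure D4:**
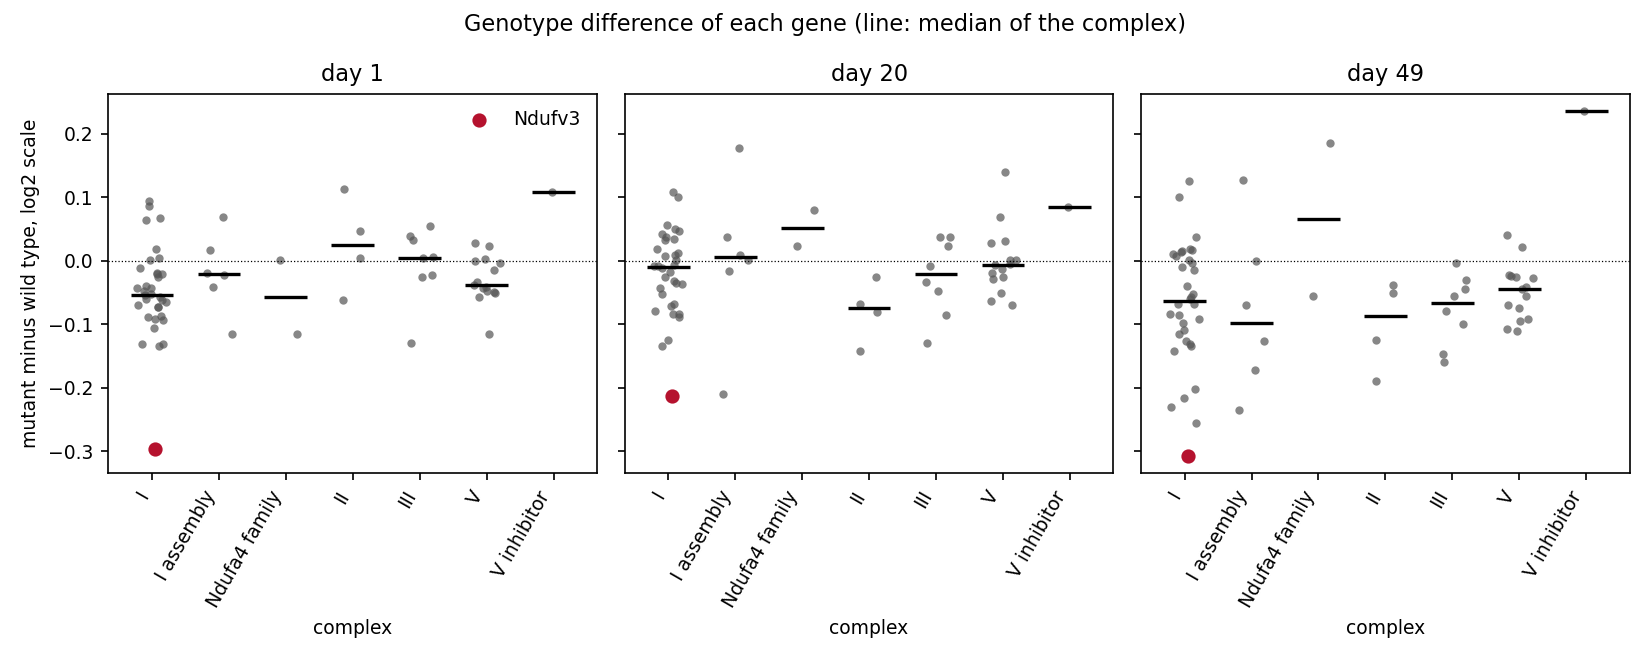
Mutant minus wild-type difference of each of the 70 genes on the log2 scale at days 1, 20 and 49, by complex, with a line at each median and Ndufv3 in red. Nearly all points lie within 0.25 of 0, Ndufv3 is the lowest point at each age, and at day 49 more points lie below 0 than above it.

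At day 49, 54 of the 70 genes were lower in the mutant and 16 higher, with a median of -0.06 beside 0.01 over all probe sets and 0.01 over the 205 equally bright ones. Groups did not overlap for 18 genes with the mutant below and 2 with it above, where 6.96% and 6.7% of all probe sets did so. The mean level of the members was 11.88, 11.94 and 11.83 on wild-type arrays and 11.82, 11.87 and 11.79 on mutant arrays, so the genotypes overlapped. All 4 subunits of complex II and all 8 of complex III were lower, as were 13 of 15 of complex V and 24 of 34 of complex I, none by a called difference. For Sdhd the difference was -0.04, and its second, nearly as bright probe set was at 0.03, also uncalled. Ndufs7 read 12.01, 12.19 and 11.93 in the wild type and 11.79, 11.80 and 11.78 in the mutant, a difference of -0.26 ± 0.10 (adjusted p = 0.403). Ndufa8 and Ndufaf1 differed by -0.23 and -0.24. On the other side Atp5if1 differed by 0.24 ± 0.12 (adjusted p = 0.668), with wild-type levels of 9.10, 9.63 and 9.27 and mutant levels of 9.63, 9.58 and 9.49. Ndufa4l2, Ndufaf5 and the accessory subunit Ndufa1 had differences of 0.19, 0.13 and 0.13.

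Marker genes also lay apart at day 49. In the mutant 10 of 11 cardiomyocyte markers were lower (0 called), with array means of 13.32 to 13.37 beside 13.40 to 13.42. Fibroblast markers were higher for 8 of 9 (1 called), leukocyte markers for 7 of 7 and erythroid markers for 5 of 5 (0 called in each). Endothelial markers were lower for 6 of 7, adipocyte markers for 5 of 6 and skeletal muscle markers for 5 of 7 (0 called in each). Smooth muscle and pericyte markers were higher for 4 and lower for 3 of 7 (0 called). Cell cycle genes were higher for 9 of 10 (median 0.41, 0 called), with array means of 5.66 to 6.18 beside 5.34 to 5.58. They were higher for 10 of 10 at day 20 (median 0.71, 0 called) and for 10 of 10 over ages (5 called). The part of these lists in the members' genotype differences was not tested. Leaving out the 2 mutant arrays with low hybridization controls leaves 1 mutant animal at day 49, and the members' median difference, given here as a value with no test, was then -0.08.

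At day 1, 48 of 70 genes were lower in the mutant (median -0.04), and at day 20, 40 of 70 (median -0.01). At day 1 the differences past Ndufv3 were led by Ndufb10, Ndufs3 and the membrane arm subunit Ndufb8 at -0.13 each, and by Sdha at 0.11, Atp5if1 at 0.11, Ndufv2 at 0.09 and Ndufc2, another accessory subunit, at 0.09. At day 20 Ndufaf1, Sdha and the accessory subunit Ndufa3 differed by -0.21, -0.14 and -0.13. The methyltransferase Ndufaf7, an assembly factor, the stalk subunit Atp5pd, Ndufa1 and Ndufb2 were at 0.18, 0.14, 0.11 and 0.10 there. None of these was called. Over the 3 ages 26 genes were lower at every age, where 15.2% of all probe sets were. Another 6 were higher at every age, a count with no share over all probe sets beside it. Those 6 were Atp5if1, Atp5pd, Ndufa1, Ndufaf5, Ndufb1 and Ndufv2. Some of these differences were slight: the Ndufb1 means at day 20 were 11.88 in the wild type and 11.89 in the mutant. In the mean over ages, Uqcrc1, Ndufs7 and Ndufaf1 differed by -0.14, -0.15 and -0.16, and Atp5if1, Ndufa1, Atp5pd and Ndufaf5 by 0.14, 0.08, 0.06 and 0.06, all uncalled.

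Ndufv3 was the member called over ages. It makes a small accessory subunit next to the NADH site, and it is known for a short and a long protein form that differ by an alternatively spliced exon. Its brighter probe set, 1368566_a_at, read 11.19, 11.19 and 11.06 in the wild type and 10.77, 10.95 and 10.82 in the mutant at day 1. At day 20 it read 11.92, 11.84 and 11.97 against 11.62, 11.71 and 11.76, and at day 49 12.17, 12.23 and 12.15 against 11.93, 11.90 and 11.80. At each age all mutant arrays were lower than any wild-type array. The differences were -0.30, -0.21 and -0.31 (each ± 0.08), none called at a single age (adjusted p = 0.276, 0.956 and 0.126). Their mean was -0.27 ± 0.05, a 1.21-fold lower level in the mutant (adjusted p = 0.00458), and it ranked 135 among 31042 probe sets by p-value. Leaving out each of the 18 arrays in turn kept the call, with differences of -0.29 to -0.26.

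The second Ndufv3 probe set, 1368567_at, went the other way. It was dim, with a mean level of 6.01. At day 1 it read 5.48, 5.40 and 5.62 in the wild type and 5.34, 5.55 and 5.49 in the mutant, and the genotypes overlapped. At day 20 it read 6.10, 6.17 and 5.81 against 6.28, 6.33 and 6.48, and at day 49 6.14, 6.00 and 6.01 against 6.86, 7.01 and 6.15. From day 20 on, the mutant arrays lay above the wild-type arrays, narrowly so for 1 mutant array at day 49. The differences were -0.04, 0.33 and 0.63 (each ± 0.16), with adjusted p-values of 1.00, 1.00 and 0.108. The mean over ages, 0.31 ± 0.09, was not called (adjusted p = 0.157). With the levels of both probe sets averaged, the difference over ages was 0.017. Which exons either probe set covers was not analysed here, so the lower value holds for the brighter probe set and not for the gene as a whole.

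**Figure D5:**
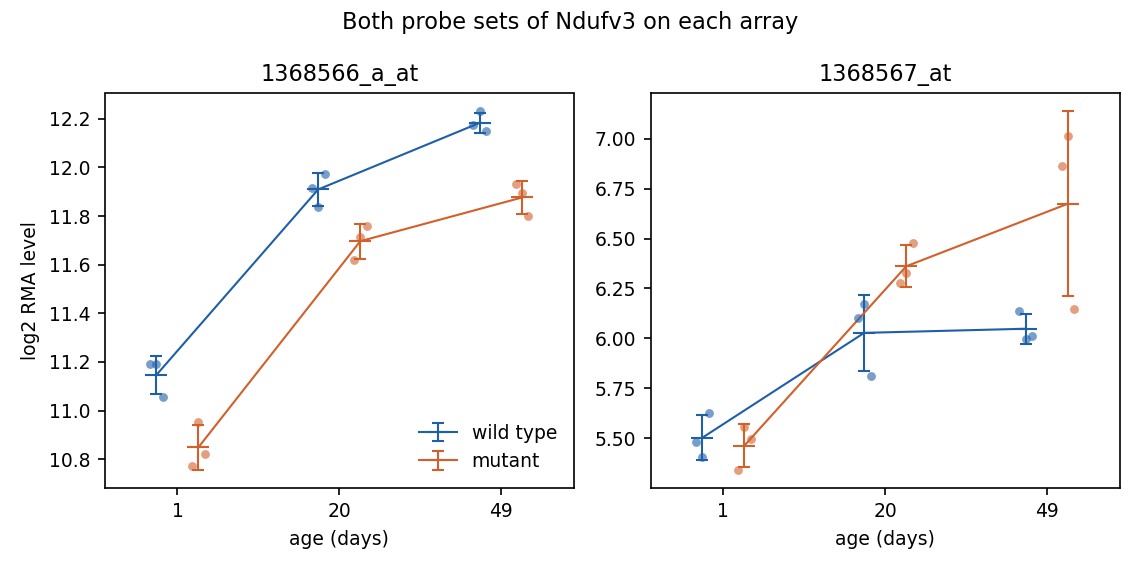
Log2 RMA level of the brighter (left) and the dimmer (right) probe set of Ndufv3 against age in days, with 1 point per array and the mean ± SD of 3 arrays per group. On the left the mutant arrays lie below the wild-type arrays at every age, and on the right they overlap at day 1 and lie above them at days 20 and 49.

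Related genes gave a setting for the changes with age. Of 15 measured nuclear subunits of complex IV, 7 rose and 3 fell from day 1 to day 20 in the wild type. The muscle forms Cox7a1, Cox8b and Cox6a2 rose by 1.32, 0.53 and 0.50. Cox6a1 and Cox8a, which are forms of other tissues, fell by 0.76 and 0.66, and the testis form Cox6b2 fell by 1.13. Cox7a1 was also called lower in the mutant at day 49 (-1.02 ± 0.18, adjusted p = 0.0067), with levels of 9.74, 10.20 and 10.31 in the wild type and 9.28, 8.73 and 9.17 in the mutant. All 7 measured electron carrier genes rose, among them the electron transfer flavoprotein genes Etfdh, Etfa and Etfb by 1.06, 0.93 and 0.77 and the ubiquinone synthesis gene Coq9 by 0.72.

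Of 15 TCA cycle genes 12 rose over this step, with a median of 0.45, led by Ogdh at 0.89, Suclg1 at 0.77 and Idh3b at 0.76. All 15 were lower in the mutant at day 49, with a median of -0.15 and 0 called by limma. At day 20 all 15 were lower too (median -0.10, 0 called), and at day 1, 9 of 15 were (median -0.01, 0 called). Of 16 genes of mitochondrial membrane transport 7 rose and 5 fell in the wild type. Ckmt2, the mitochondrial creatine kinase of muscle, rose by 4.08 and the carnitine transferase gene Cpt2 by 1.29, while the import receptor genes Tomm40 and Tomm70 fell by 0.52 each. Of 23 assembly factors with other symbols 7 rose and 2 fell, with Dmac2, Ecsit and Uqcc2 at 0.84, 0.75 and 0.67.

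Among 20 regulators of mitochondrial biogenesis 5 rose and 4 fell from day 1 to day 20 in the wild type. Ppargc1a, the coactivator that drives mitochondrial gene programmes, read 8.79, 8.69 and 9.08 at day 1 and 9.93, 9.52 and 9.93 at day 20. The rise was 0.94 ± 0.12 in wild-type and 0.88 in mutant animals, without overlap of the ages. Its relative Pprc1 fell by 0.76 and the nuclear receptor gene Esrrb by 0.72 in the wild type. Between the genotypes over ages Esrrb was called higher in the mutant, by 0.46 ± 0.08, and the mitochondrial RNA polymerase gene Polrmt lower, at -0.29 ± 0.06.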

How the data were processed

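Per the series design text, single ventricular RNA extracts were hybridized to Affymetrix Rat 230 2.0 arrays, and the authors deposited log2 levels made by RMA (named without a version in the submitters' processing notes), which were used as deposited. The organism field names mouse, while the strains and the array are rat. RMA gives dim probe sets a level that is mostly background.

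Of 31099 probe sets, 57 controls were left out and 31042 tested in 1 model of 6 groups over 18 arrays (limma 3.58.1, R 4.3.3, lmFit and eBayes, two-sided moderated tests, 12 residual degrees of freedom). Errors of differences are the model's SE. With 3 animals a group, the number of arrays limits the precision. On simulated data with 50 changed probe sets per size, the day 49 genotype test called 0% of changes of 0.3, 32% of changes of 0.5 and 88% of changes of 1. The changed probe sets were drawn from all those tested, whose median SE was 0.12, beside 0.09 for the members. Rates for the members were not simulated.

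The members and lists were chosen with earlier results of these data known. Named were members called between genotypes, the 4 largest differences in each direction at each age and over ages, the 10 largest called wild-type changes of each age step, and fixed genes (Sdha to Sdhd, Cyc1, Atp5mc3, Ndufa4, Ndufa4l2, Atp5if1). For lists, up to 4 called genes were named. Others named by role, or beside these, were chosen after their values were seen. Gene symbols came from the platform annotation.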

Additional observations from a re-analysis of the deposited data

How the results depend on the processing

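The 44 and 47 members that rose from day 1 to day 20 came to between 36 and 51 under every alternative run, and no genotype call at days 1 or 20 appeared. Averaging all probe sets of a gene gave 0 members lower over ages, 0 falling from day 1 to day 20 in either genotype, and turned the sign of Ndufv3 at day 20 (0.060), at day 49 (0.16) and over ages (0.017) and of Ndufaf7 at day 20 (-0.021). Without the day 1 arrays of wide Gapdh gap, Ndufb10 differed by 0.0077 at day 1, where 1 mutant array was left. Quantile normalization and limma's trended robust prior each gave 1 member lower at day 49, which was Ndufv3 (adjusted p = 0.0159 and 0.0339).

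Small counts moved. Members falling from day 1 to day 20 in the wild type were 2 with arrays centred on their median, with bright probe sets only and with 1 probe set per gene, and 1 to 2 with single arrays left out. From day 20 to day 49 in the wild type, 2 rose with centred arrays, 3 with only the groups compared and 1 to 2 with single arrays left out. Falling there were 1 with centred arrays, bright probe sets, 1 probe set per gene or the trended prior, 2 with array weights, and 0 to 2 with single arrays left out. In the mutant over that step, 0 rose with centred arrays, with only the groups compared or without the low-control arrays, 2 with bright probe sets, 1 probe set per gene or array weights, 3 with quantile normalization or the trended prior, and 0 to 1 with single arrays left out. Falling there were 3 with centred arrays, bright probe sets, 1 probe set per gene, array weights or the trended prior, 0 with only the groups compared or without the low-control arrays, and 0 to 2 with single arrays left out. Without the low-control arrays 1 mutant array is left at day 49, assumed to vary like the other groups. The cause of these moves was not tested.

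With the replicate number as a block, 2 members rose from day 20 to day 49 in the wild type and 0 in the mutant. Same-numbered arrays correlated at -0.19 to 0.22, above 0.1 in 4 of 9 pairs, so the numbers were not taken as pairs. With 3 animals a group, small genotype differences could go uncalled.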
